A study of Mus musculus with 19 samples.

Results

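The comparison described here is the effect of rosiglitazone in mice without diabetes: 5 sciatic nerve arrays of control mice given rosiglitazone were set against 4 arrays of control mice given vehicle, 9 of the 19 arrays of the study. The arrays were chosen by their titles alone, and all 13460 genes that could be tested enter the comparison. All mice were of the inbred strain DBA/2J, and neither of these groups had been given streptozotocin, the toxin that made the remaining 10 mice diabetic (5 given rosiglitazone and 5 given vehicle). Dose, duration of treatment and age are not given in the sources used here, and the vehicle mice carry the treatment label None beside a source name that says Vehicle. Each array is called by its group and the number in its title, CR711 to CR715 for control mice with rosiglitazone, CV702 to CV705 for control mice with vehicle, and DR and DV for the diabetic mice with rosiglitazone and vehicle. Per the design text, the authors dropped 1 control chip on quality grounds. The values are Affymetrix probe set intensities on the log2 scale, and a difference is always rosiglitazone minus vehicle.

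Rosiglitazone binds PPAR gamma, a nuclear receptor that pairs with a retinoid X receptor on DNA and is most abundant in fat cells. Genes under its control there take up, store and burn fatty acids, and in macrophages its ligands are known to dampen inflammatory genes. A sciatic nerve sample holds Schwann cells with their myelin, axons, fibroblasts, blood vessels and macrophages, wrapped in an outer sheath that contains fat, and it lies between muscles.

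No gene differed between the 5 nerves with rosiglitazone and the 4 with vehicle after correction over all genes. Genes of fat storage, lipid synthesis and skeletal muscle lay higher with rosiglitazone but spread widely between mice, and among the genes that lay lower without overlap were the chemokine genes Ccl7 and Ccl2, the matrix gene Lum and the signalling genes Map4k5 and Spry2. At an adjusted p of 0.05 limma called 0 of 13460 genes (0%), and the smallest adjusted p was 0.999997. At an unadjusted p under 0.05 there were 381 genes (2.83%), 199 higher (1.48%) and 182 lower (1.35%). The count was 204 without array CV705 and 237 without array CR711. In 464 genes (3.45%) the arrays of both groups did not overlap, with rosiglitazone higher in 212 (1.58%) and lower in 252 (1.87%). The median difference over all tested genes was 0.00, its quartiles were -0.13 and 0.13, and the median SE was 0.21. Differences above 1 were found in 95 genes and below -1 in 22. When each array was weighted by how well it fitted its group, 20 genes passed an adjusted p of 0.05, 18 lower and 2 higher, with a smallest adjusted p of 0.0365. Arrays CR715 and CR711 counted little in that fit, with weights of 0.253 and 0.473. The other rosiglitazone arrays had weights from 2.34 to 3.75, and the vehicle arrays from 1.64 to 4.2.

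**Figure D1:**
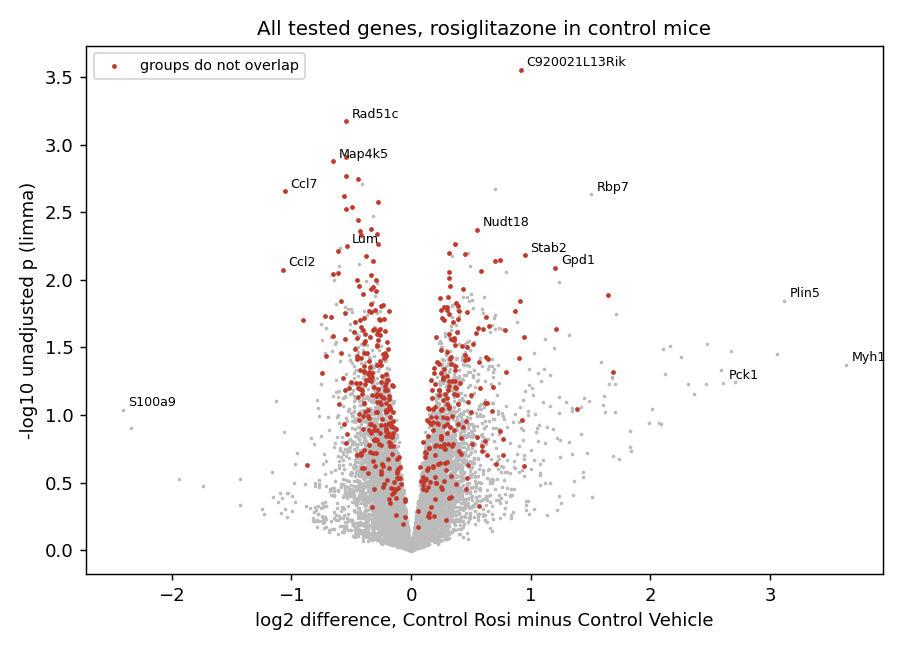
Each point is 1 of 13460 tested genes, with the log2 difference of control rosiglitazone minus control vehicle arrays on the x axis and the negative log10 of limma's unadjusted p on the y axis. Red points are the 464 genes whose 5 rosiglitazone and 4 vehicle arrays do not overlap. Fat and muscle genes such as Plin5 and Myh1 lie far to the right at modest p, and the chemokine genes Ccl7 and Ccl2 lie to the left.

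Several arrays stood apart from their own group, and fat, muscle and ganglion transcripts varied between arrays of the same treatment. For each cell type list, the level of an array is the mean of its genes after each was centred on its mean over the 19 arrays. The level of 13 sensory neuron cell body genes, whose cells sit in ganglia and not in the nerve trunk, was -3.26 in array CR715, between 0.98 and 1.71 in the other rosiglitazone arrays and between 0.26 and 1.12 in the vehicle arrays. Isl1, which encodes a LIM homeodomain factor needed by sensory neurons, was at 9.98, 11.26, 10.82, 10.52 and 6.41 in arrays CR711 to CR715, against 10.26, 10.95, 10.46 and 10.11 in arrays CV702 to CV705. Array CR715 stood apart from the other 8 in this gene. Tac1, the substance P precursor, likewise lay at 5.52 in array CR715, with a group difference of -0.73 (SE 1.77) that was 0.56 without that array. Of the 2 probe sets of Tac1 only 1 lay lower. The adipocyte level, over 19 genes, was 0.93, 1.22, -0.55, 0.10 and 2.64 in arrays CR711 to CR715, against -2.17, 0.09, -0.69 and 0.73 in arrays CV702 to CV705. The level of 32 skeletal muscle genes ran from -1.81 to 1.52 with rosiglitazone and from -1.70 to 0.01 with vehicle. Array CR715 was the most extreme of the 9 arrays in 40.1% of genes and array CR711 in 29.8%. Gapdh 3' minus 5' differences, which grow as RNA breaks down, were 1.24 ± 0.06 (SD, n = 5) with rosiglitazone and 1.23 ± 0.11 (SD, n = 4) with vehicle, with a two-sided exact permutation p of 0.873 (adjusted p = 0.929 over 3 array measures). The same difference for actin was 0.865 ± 0.261 (SD, n = 5) with rosiglitazone and 0.693 ± 0.0916 (SD, n = 4) with vehicle (two-sided exact permutation p = 0.27, adjusted p = 0.81), and array CR711 stood apart at 1.31.

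**Figure D2:**
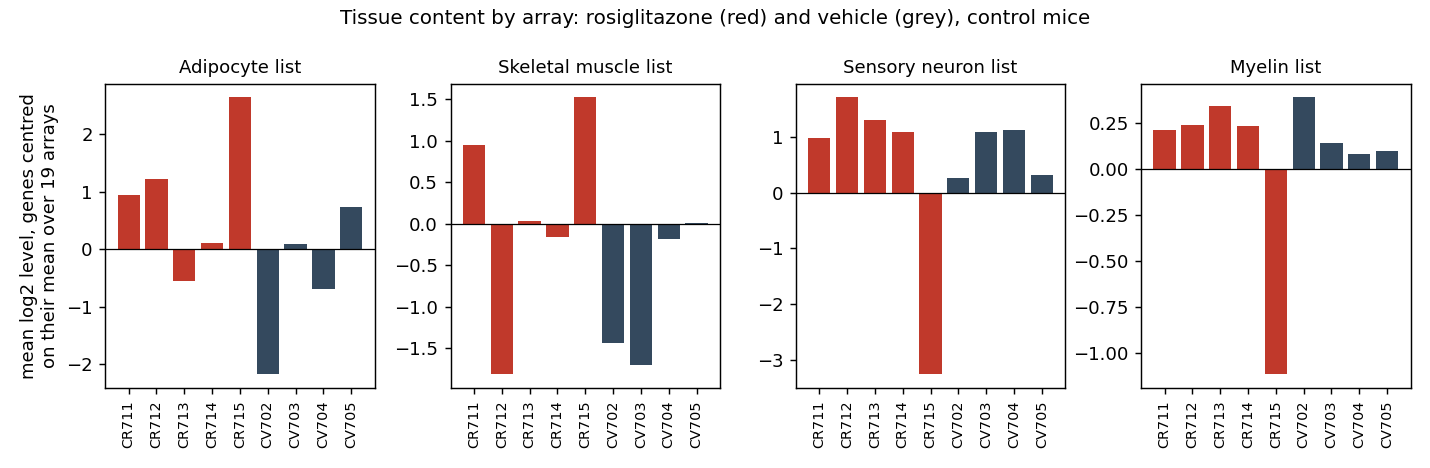
Bars give the level of 4 cell type lists in each array (mean log2 intensity of the list's genes, each centred on its mean over 19 arrays), with 5 control rosiglitazone arrays in red on the left and 4 control vehicle arrays in grey on the right. Array CR715 has the highest adipocyte level, 2.64, and the lowest sensory neuron and myelin levels, -3.26 and -1.12, and array CV702 has the lowest adipocyte level, -2.17.

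The receptor genes themselves showed no difference beyond the spread between mice. Pparg, the target of the drug, was at 9.02, 8.98, 6.99, 7.90 and 11.48 in arrays CR711 to CR715, against 6.30, 8.32, 6.96 and 8.65 in arrays CV702 to CV705. The groups overlapped, array CR715 was the highest, and the difference was 1.32 (SE 0.89). Rxra, its DNA-binding partner, averaged 11.22 ± 0.36 (SD, n = 5) with rosiglitazone and 11.10 ± 0.16 (SD, n = 4) with vehicle, and its difference of 0.12 was -0.03 without array CR715. Ppargc1a, a coactivator of mitochondrial genes, differed by -0.04 (SE 0.31), or 0.16 without array CR715. Of 20 receptor, partner and coregulator genes, 8 lay higher and 12 lower with a median of -0.02, beside 50.6% higher and a median of 0.00 over all tested genes. The 3 members at an unadjusted p under 0.05 all lay lower, beside 1.35% of all tested genes: the corepressor subunit Tbl1xr1 by -0.21 (SE 0.09) and the coactivators Ncoa2 by -0.26 (SE 0.12) and Crebbp by -0.20 (SE 0.09). In Ncoa2 the rosiglitazone arrays all lay below every vehicle array (1.87% of all tested genes), and in Lpin1, a coactivator that is also an enzyme of triglyceride synthesis, all lay above (1.58%), with a difference of 0.50 (SE 0.26). Of the 4 probe sets of Crebbp only 2 shared its sign.

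Among 40 tested targets of PPAR in fat and lipid handling, 37 lay higher with rosiglitazone and the median difference was 0.53, with 8 higher and 0 lower at an unadjusted p under 0.05 (1.48% and 1.35% of all tested genes). Without array CR715 the median was 0.23 with 36 of 40 higher, and without array CV702 it was 0.31 with 38 of 40 higher, each with 2 members at an unadjusted p under 0.05. Of all 13460 tested genes, 381 had an unadjusted p under 0.05 with all arrays. The number was 401 without array CR715, 286 without array CV702 and 270 without array CV704. It was 237 without array CR711, 324 without array CR712 and 264 without array CV703. Leaving out array CR714 gave 457 and leaving out array CR713 gave 511. Among the targets the count was also 2 without array CV704, and 5 without array CR711, CR712 or CV703. It was 12 without array CR714 and 16 without array CR713. The adipocyte level moved with this list, with 19 of 19 adipocyte genes higher, a median of 1.32 (0.82 without array CR715 and 0.83 without array CV702) and levels from -0.55 to 2.64 with rosiglitazone and from -2.17 to 0.73 with vehicle. 13 genes stand in both lists. With the adipocyte level as a covariate in the fit, 21 of 40 targets lay higher with a median of 0.07. A larger share of fat cells and more RNA of these genes per cell cannot be told apart in whole-nerve RNA.

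Plin5 encodes a lipid droplet coat protein of tissues that burn fat, and it had the largest difference of the target list. It was at 9.03, 8.70, 6.21, 7.37 and 11.14 in arrays CR711 to CR715, against 3.94, 6.44, 5.06 and 6.05 in arrays CV702 to CV705. Array CR713 lay below array CV703, so the groups overlapped. The difference was 3.12 (SE 1.14), or 8.67-fold (limma, unadjusted p = 0.0143), and 2.45 without array CR715. With the adipocyte level as a covariate it was 1.28. Plin5 is shown with its promoter because it leads the targets and because the sequence holds a copy of AGGTCA, the motif to which PPAR and its partner bind as a spaced pair. The enzyme gene Acss2, described with lipid synthesis, is shown beside it as a gene with no copy. Both were picked from 11 candidate genes after their values were seen, and after the matches of the 4 with an entry (Plin5, Acss2, Acaca and Mvk) were seen. Both are RefSeq sequences of build GRCm38.p6, windows of 300 bases around the start read 5′ to 3′ on the gene's strand, with a motif match in capitals. The Plin5 sequence is chr17:56117499-56117798 on the minus strand, and the Acss2 sequence is chr2:155517793-155518092 on the plus strand.
Plin5: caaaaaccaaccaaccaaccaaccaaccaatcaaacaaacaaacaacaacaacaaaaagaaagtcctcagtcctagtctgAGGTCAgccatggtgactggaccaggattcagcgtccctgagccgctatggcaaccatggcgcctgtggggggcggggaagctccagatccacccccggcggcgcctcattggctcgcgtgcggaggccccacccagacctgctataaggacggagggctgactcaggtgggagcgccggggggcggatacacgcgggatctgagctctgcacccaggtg
Acss2: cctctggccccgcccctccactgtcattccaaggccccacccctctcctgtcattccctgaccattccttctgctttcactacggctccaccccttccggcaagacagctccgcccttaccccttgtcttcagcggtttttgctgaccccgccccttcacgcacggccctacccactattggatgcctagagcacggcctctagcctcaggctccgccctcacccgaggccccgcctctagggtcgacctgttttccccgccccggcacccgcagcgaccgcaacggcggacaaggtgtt

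AGGTCA was searched on both strands of 32851 promoter windows and was present in 16.3% of them, in 12.6% of the 13880 windows of tested genes, and in 9 of the 39 windows (23.1%) of the PPAR targets, of which 31 of 40 genes had an entry. The targets with a match were Acadm, Aqp7, Cat, Cd36, Cpt1a, Plin2 and Plin5. Among genes whose arrays did not overlap, 12.963% of the windows of those higher and 12.167% of the windows of those lower held it. A pair of such copies with 1 base between them, which contains the shorter motif, was found in 13 of all windows (0.04%) and in 0 of the PPAR targets' windows.

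Other genes of fat storage spread as widely between mice. Of those named here, Plin4, Pck1, Aqp7, Cidec, Fabp4, Lpl, Adipoq, Slc2a4 and Lipe belong to the list from which the adipocyte level is computed, so their values with that level as a covariate are no independent measure. Plin4, a further droplet coat protein, was at 11.46, 11.35, 9.04, 10.34 and 12.98 in arrays CR711 to CR715, against 6.66, 9.91, 8.77 and 10.36 in arrays CV702 to CV705. Array CR713 and array CR714 lay within the vehicle range, and the difference of 2.11 (SE 0.90) was 1.35 without array CV702. Pck1, whose product makes glycerol for triglyceride in fat cells, was at 10.82, 11.15, 8.26, 9.13 and 12.73 with rosiglitazone and at 4.88, 9.05, 7.45 and 9.87 with vehicle. Its groups overlapped too, with a difference of 2.61 (SE 1.28) that was 1.63 without array CV702 and 0.30 with the adipocyte covariate. Aqp7, the glycerol channel of fat cells, differed by 2.46 (SE 1.22), and Cidec, which fuses lipid droplets, by 2.07 (SE 1.25). The difference of Cidec was -0.14 with the adipocyte covariate. Cidea, a droplet protein of brown fat, was at 7.80, 7.62, 7.49, 7.25 and 11.75 in the rosiglitazone arrays, against 7.19, 5.999, 6.54 and 7.06 in the vehicle arrays. All 5 rosiglitazone arrays thus lay above the 4 vehicle arrays, 4 of them narrowly, with array CR715 far above the rest (difference 1.68, SE 0.79). The fatty acid carrier Fabp4 (0.87, SE 0.72), the uptake receptor Cd36 (0.55, SE 0.67), the lipase Lpl (0.68, SE 0.64), the hormone gene Adipoq (1.43, SE 1.24), the droplet coat gene Plin2 (0.27, SE 0.29) and the insulin-responsive glucose transporter Slc2a4 (0.74, SE 0.47) all differed by less than 2 SE. The lipases Lipe and Mgll differed by 1.58 (SE 0.72) and 0.53 (SE 0.22). Among uptake genes, Slc27a1 and Slc27a2, fatty acid transport proteins, differed by 0.23 (SE 0.12) and 0.77 (SE 0.44), and Gpihbp1, which anchors lipoprotein lipase to capillaries, by 1.07 (SE 0.65). Of 20 fatty acid uptake and carrier genes, 14 lay higher and 6 lower, with a median of 0.08 and a lowest difference of -1.24. In this list 0 members had an unadjusted p under 0.05, beside 2.83% of all tested genes. Cox8b, a respiratory subunit of brown fat and muscle, differed by 1.99 (SE 1.196) and Otop1, a proton channel of brown fat, by 0.45 (SE 0.27). Of 13 brown fat and thermogenic genes, 9 lay higher and 4 lower, with a median of 0.14 and a lowest difference of -1.03. Of 16 lipid droplet and lipolysis genes, 13 lay higher with a median of 0.84, or 0.40 without array CR715.

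Rbp7 encodes a cytoplasmic retinol-binding protein, and it is named here although it falls outside the naming rule, after its values were seen. It was at 11.75, 12.22, 10.65, 11.72 and 13.31 in arrays CR711 to CR715, against 9.56, 11.29, 10.02 and 10.84 in arrays CV702 to CV705. Array CR713 alone lay below a vehicle array, and the difference was 1.503 (SE 0.42, limma unadjusted p = 0.00233). Without array CR715 it was 1.16, and with arrays CR715 and CV702 both left out it was 0.87. In diabetic mice Rbp7 averaged 12.45 ± 0.33 (SD, n = 5) with rosiglitazone and 11.41 ± 0.38 (SD, n = 5) with vehicle, a difference of 1.05 (SE 0.40), so it was higher with the drug in both states.

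Of 24 genes for fatty acid and triglyceride synthesis, 20 were higher, and the median of 0.47 was 0.28 without array CR715. Of these genes, 5 had an unadjusted p under 0.05 and in 6 the groups did not overlap, against 1.48% and 1.58% of all tested genes. Without array CR715, or without array CV704, only 1 had an unadjusted p under 0.05, and without array CV703 there were 2. Over all 13460 tested genes the number was 401 without array CR715, 270 without array CV704, 264 without array CV703 and 381 with all arrays. Gpd1 makes glycerol 3-phosphate, the backbone of triglyceride. It was at 11.41, 11.13, 10.46, 10.56 and 13.10 in arrays CR711 to CR715, against 10.09, 10.04, 9.99 and 10.39 in arrays CV702 to CV705. Every rosiglitazone array lay above every vehicle array, and the difference of 1.21 (SE 0.40), or 2.31-fold, was 0.76 without array CR715. All 4 probe sets of Gpd1 lay higher. Acaca, the first committed enzyme of fatty acid synthesis, was at 10.22, 9.68, 9.77, 9.64 and 11.01 with rosiglitazone and at 9.59, 9.33, 9.25 and 9.498 with vehicle. Acss2, which makes acetyl-CoA from acetate, was at 11.24, 10.92, 11.18, 10.82 and 11.60 with rosiglitazone and at 10.75, 10.65, 10.63 and 10.69 with vehicle. Neither gene overlapped between the groups, although array CR714 lay close to the vehicle arrays in both. The differences were 0.65 (SE 0.26) for Acaca and 0.47 (SE 0.20) for Acss2, and 0.41 and 0.36 without array CR715. Of the 3 probe sets of Acss2, 2 lay higher. Agpat2, an acyltransferase of triglyceride synthesis, differed by 1.03 (SE 0.45), with array CR715 at 12.89 and the other rosiglitazone arrays between 9.95 and 10.69.

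**Figure D3:**
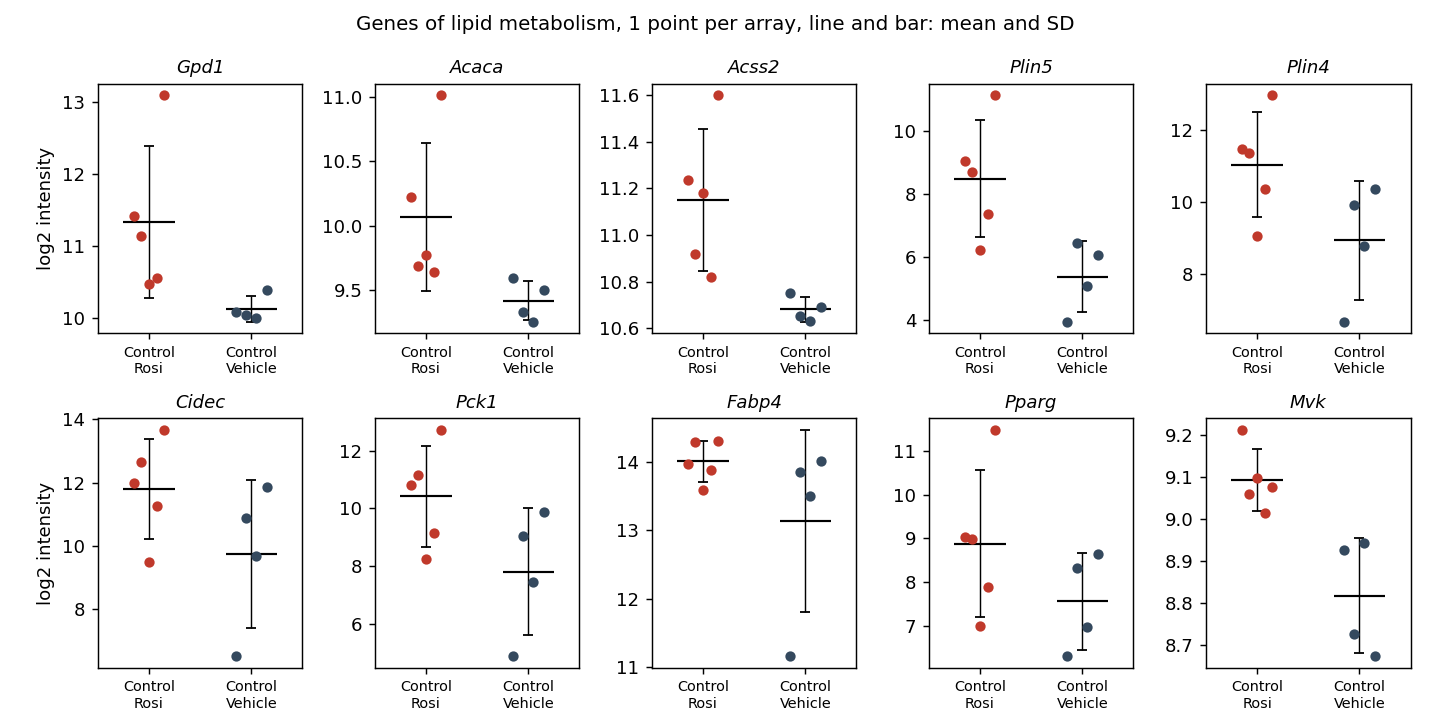
Points give the log2 intensity of 10 genes of lipid metabolism in the 5 control rosiglitazone arrays (left in each panel) and the 4 control vehicle arrays (right), with the mean as a line and the SD as a bar. Gpd1, Acaca, Acss2 and Mvk do not overlap between the groups, while Plin5, Plin4, Cidec, Pck1, Fabp4 and Pparg overlap and spread widely.

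Genes that burn fatty acids and drive mitochondrial respiration lay slightly higher in most members. In fatty acid oxidation 29 of 33 genes lay higher with a median of 0.22, in the citric acid cycle 16 of 19 with 0.21, in oxidative phosphorylation 66 of 73 with 0.11 and in the mitochondrial ribosome 57 of 62 with 0.13. Over all tested genes 50.6% lay higher with a median of 0.00. Without array CR715 those medians were 0.09, 0.12, 0.07 and 0.07. Members at an unadjusted p under 0.05 numbered 3 of 33, 2 of 19, 3 of 73 and 3 of 62, all higher, beside 1.48% of all tested genes. Acads, a short-chain acyl-CoA dehydrogenase, was at 10.61, 10.26, 9.91, 10.26 and 11.69 in arrays CR711 to CR715, against 9.58, 9.79, 9.64 and 10.002 in arrays CV702 to CV705. Array CR713 lay just below array CV705, and the difference of 0.79 (SE 0.27) was 0.50 without array CR715. Acaa1b, a peroxisomal thiolase, differed by 2.47 (SE 1.04) and Slc25a20, the carnitine carrier of the inner membrane, by 0.22 (SE 0.10). Cpt1a, which admits long-chain fatty acids to mitochondria, differed by -0.04 (SE 0.22). Among respiratory genes Sdhb differed by 0.35 (SE 0.13), Cyc1 by 0.36 (SE 0.17) and Ndufs4 by 0.26 (SE 0.12), Pcx, which refills the citric acid cycle, by 0.72 (SE 0.33) and Mrpl35 by 0.29 (SE 0.12). Sucla2, a subunit of succinyl-CoA ligase, differed by 0.22 (SE 0.10). Skeletal muscle is rich in such transcripts, and its part in these values was not tested beyond a fit with the muscle level as a covariate. In that fit 242 of all tested genes, instead of 381, had an unadjusted p under 0.05. The skeletal muscle list also had 31 of 32 genes higher (median 0.77). Its contractile gene Myh1 was at 11.24, 2.82, 6.14, 8.74 and 10.996 with rosiglitazone and at 3.79, 3.81, 6.46 and 3.33 with vehicle, a difference of 3.64 (SE 1.66) between groups that overlapped. Myh2 and Mb, further muscle genes, differed by 2.71 (SE 1.33) and 2.59 (SE 1.21). Of the 2 probe sets of Mb only 1 lay higher. The muscle median was 0.42 without array CV703, 0.43 without array CR715, 1.35 without array CV705 and 1.42 without array CR712.

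Fuel selection genes were less uniform. Pdk2 differed by 0.35 (SE 0.18), Ldha, lactate dehydrogenase A, by 0.32 (SE 0.20) and Pik3r1, a subunit of PI3 kinase, by -0.21 (SE 0.13). Pdk4 and Angptl4, both induced by fatty acids through PPAR, differed by 0.19 (SE 0.18) and 0.38 (SE 0.42). Gys1, the muscle form of glycogen synthase, was at 8.76, 7.75, 7.57, 7.60 and 9.05 in the rosiglitazone arrays, against 7.11, 7.27, 7.40 and 7.19 in the vehicle arrays. The groups did not overlap, with arrays CR711 and CR715 well above the rest (difference 0.91, SE 0.40). Igf1r, the receptor of insulin-like growth factor, was at 8.34, 9.499, 9.75, 9.54 and 8.93 with rosiglitazone and at 9.84, 9.87, 9.86 and 10.24 with vehicle. Here arrays CR711 and CR715 were the lowest, and the difference of -0.74 (SE 0.35) was -0.24 when all probe sets of the gene were averaged.

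Cholesterol synthesis behaved differently from fat storage, in that its values did not rest on array CR715. Of 20 genes, 18 lay higher with a small median of 0.12, and without array CR715 all 20 lay higher with a median of 0.25. The median was 0.06 without array CR713, 0.07 without array CR712 and 0.38 with the adipocyte level as a covariate. Mvk, mevalonate kinase, was at 9.21, 9.06, 9.10, 9.01 and 9.08 in arrays CR711 to CR715, against 8.93, 8.73, 8.94 and 8.67 in arrays CV702 to CV705. The groups did not overlap and no array stood apart, with a difference of 0.27 (SE 0.10, limma unadjusted p = 0.0158). The next enzymes of the mevalonate pathway, Pmvk and Mvd, differed by 0.31 (SE 0.17) and 0.42 (SE 0.25). The level of this list was 0.34, 0.41, 0.50, 0.24 and -0.27 in arrays CR711 to CR715 and 0.27, 0.04, 0.10 and -0.01 in arrays CV702 to CV705, so that array CR715 was the lowest of all.

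Chemokine genes that recruit monocytes and eosinophils lay lower with rosiglitazone. Ccl7, which attracts monocytes, was at 8.79, 8.89, 8.95, 9.62 and 9.91 in arrays CR711 to CR715, against 10.06, 10.35, 10.23 and 10.50 in arrays CV702 to CV705. Ccl2, the main monocyte chemoattractant, was at 9.45, 9.68, 9.51, 10.28 and 10.59 with rosiglitazone and at 10.89, 10.77, 11.11 and 11.11 with vehicle. In both genes every rosiglitazone array lay below every vehicle array. Ccl7 differed by -1.05 (SE 0.29, limma unadjusted p = 0.00222), or 0.483-fold, and Ccl2 by -1.07 (SE 0.36, limma unadjusted p = 0.00844), or 0.477-fold. Ccl11, the eosinophil attractant eotaxin, was at 11.87, 12.47, 12.36, 12.33 and 12.65 with rosiglitazone and at 12.51, 12.91, 13.06 and 12.90 with vehicle. Array CR715 lay above array CV702, so these groups overlapped, and the difference was -0.51 (SE 0.20). Leaving out any 1 of the 9 arrays gave -1.22 to -0.94 for Ccl7, -1.24 to -0.95 for Ccl2 and -0.62 to -0.39 for Ccl11. With array weights Ccl7 and Ccl2 passed (limma adjusted p = 0.0365 and 0.0378) and Ccl11 did not (adjusted p = 0.0792). These 3 genes are neighbours on chromosome 11 with Ccl12 and Ccl8, which differed by -0.44 (SE 0.37) and -0.57 (SE 1.01).

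In the cytokine and chemokine list 19 of 25 genes were lower (median -0.30), and the members at an unadjusted p under 0.05 were those 3, all lower (1.35% of all tested genes). The median was -0.15 without array CV705. Il1b, a cytokine of activated macrophages, differed by -0.72 (SE 0.91) and Cxcl1, a neutrophil attractant, by -0.57 (SE 0.53), while Cxcl9, an interferon-induced attractant of T cells, lay 0.73 higher (SE 0.89). In the macrophage list 18 of 20 genes were lower (median -0.19, or -0.39 with the adipocyte level as a covariate), including the receptor genes Cd163 (-0.38, SE 0.32) and Adgre1 (-0.36, SE 0.32), with levels from -0.30 to 0.07 with rosiglitazone and from 0.00 to 0.29 with vehicle. Lyz2, lysozyme of macrophages and neutrophils, was at 13.38, 13.40, 13.40, 13.49 and 13.55 in the rosiglitazone arrays and at 13.61, 13.66, 13.75 and 13.76 in the vehicle arrays. The groups did not overlap, by a narrow margin (difference -0.25, SE 0.14). The neutrophil list had 8 of 8 genes lower, Mpo (myeloperoxidase) by -1.16 (SE 1.00), and a median of -1.58 that was -0.42 without array CV703 and -2.59 without array CV704. S100a9, a calcium-binding protein abundant in neutrophils, was at 9.02, 9.44, 10.74, 8.91 and 11.53 with rosiglitazone and at 12.56, 13.99, 9.74 and 13.06 with vehicle. Array CV704 lay within the rosiglitazone range, and S100a9 differed by -2.41 (SE 1.35) and its partner S100a8 by -2.34 (SE 1.45). The part of macrophage and neutrophil content in the chemokine values was not tested.

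In diabetic mice the same chemokine genes lay on the other side on average. In each of them the groups overlapped, with array DV710 above arrays DR716 and DR720. Ccl7 was at 9.44, 9.65, 10.15, 9.98 and 9.36 in arrays DR716 to DR720 and at 8.01, 8.57, 8.77, 9.07 and 9.68 in arrays DV706 to DV710. It thus lay 0.90 higher with rosiglitazone (SE 0.28), and the difference between both drug effects, control minus diabetic, was -1.95 (SE 0.40, limma unadjusted p = 0.000151, adjusted p = 0.748). Ccl2 differed by 0.85 (SE 0.34) in diabetic mice, with a difference between effects of -1.92 (SE 0.49), and Ccl11 by 0.46 (SE 0.19), with -0.97 (SE 0.28). None of the 13460 genes passed an adjusted p of 0.05 for the difference between effects (0%), and 642 (4.77%) had an unadjusted p under 0.05, 389 above 0 (2.89%) and 253 below 0 (1.88%). For the drug effect in diabetic mice limma likewise called 0 genes (0%), with 1305 (9.7%) at an unadjusted p under 0.05, 556 higher (4.13%) and 749 lower (5.56%). Arrays DV706 and DV707, with low Ccl7, had Gapdh 3' minus 5' differences of 3.71 and 4.38, above all other arrays. With that measure as a covariate, 317 genes instead of 642 had an unadjusted p under 0.05 for the difference between effects. The part of RNA breakdown in the chemokine values was not tested. The cytokine and chemokine list had a median of 0.38 in diabetic mice, with 17 of 25 higher.

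**Figure D4:**
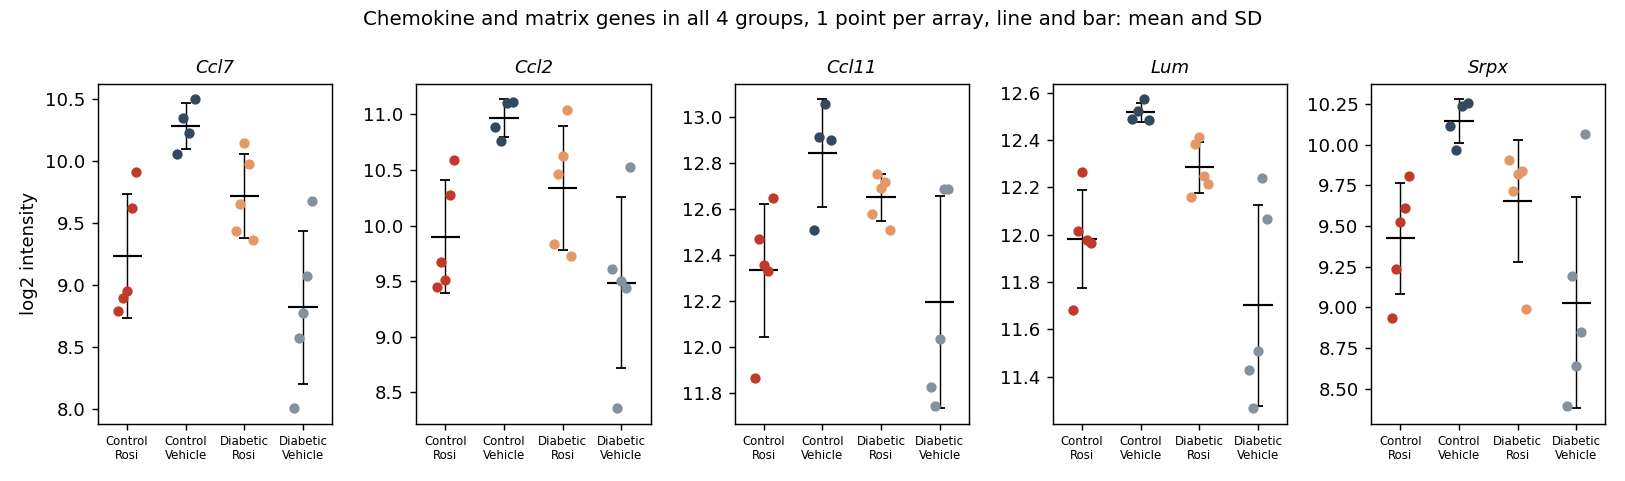
Points give the log2 intensity of the chemokine genes Ccl7, Ccl2 and Ccl11 and of Lum and Srpx in control rosiglitazone, control vehicle, diabetic rosiglitazone and diabetic vehicle arrays, left to right, with the mean as a line and the SD as a bar. Control rosiglitazone means lie below control vehicle means (9.23 against 10.29 for Ccl7), and diabetic rosiglitazone means lie above diabetic vehicle means (9.72 against 8.82).

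Other genes with the strongest difference between both drug effects were a mixed group. Lum encodes lumican, a proteoglycan that spaces collagen fibrils. It was at 11.68, 12.02, 12.26, 11.98 and 11.96 in arrays CR711 to CR715, against 12.49, 12.52, 12.57 and 12.48 in arrays CV702 to CV705. The groups did not overlap and the vehicle arrays lay close together, with a difference of -0.54 (SE 0.17), against 0.58 (SE 0.16) in diabetic mice. The difference between effects was -1.12 (SE 0.23, limma unadjusted p = 0.000164, adjusted p = 0.748). Srpx, a secreted sushi repeat protein, differed by -0.72 (SE 0.28) in control mice, with no overlap, and by 0.63 (SE 0.26) in diabetic mice. Aqp11, an intracellular aquaporin, and Me3, a mitochondrial malic enzyme, differed by 0.31 (SE 0.25) and 0.42 (SE 0.25) in control mice and by -0.998 (SE 0.24) and -0.79 (SE 0.24) in diabetic mice. Arrays DV706 and DV707, with Gapdh 3' minus 5' differences of 3.71 and 4.38, had the lowest Lum, 11.43 and 11.27. They also had the highest Me3, 7.52 and 7.62. Aqp11 was at 7.96 and 7.17 there, and from 6.43 to 7.26 in the other diabetic vehicle arrays. Srpx was at 8.395 and 9.19, against 8.64 to 10.06. The part of these arrays was not tested. Over all tested genes, 46.3% had the same sign in both states, and of the 381 genes at an unadjusted p under 0.05 in control mice 236 (61.9%) did. The 2 effects share no array.

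In the collagen and matrix list 37 of 44 genes were lower, and the median of -0.11 was -0.19 without array CR715 or without array CV702. Of the 44, 2 had an unadjusted p under 0.05, both lower (1.35% of all tested genes), and in 4 all rosiglitazone arrays lay below all vehicle arrays (1.87% of all tested genes). Lamc1, the gamma chain of most basement membrane laminins, was at 11.36, 11.90, 11.97, 11.90 and 12.20 with rosiglitazone and at 12.36, 12.24, 12.36 and 12.38 with vehicle, and differed by -0.47 (SE 0.20) with no overlap. Col1a1, the main collagen of connective tissue, was at 13.39, 13.30, 13.34, 13.34 and 13.37 in the rosiglitazone arrays and at 13.60, 13.52, 13.47 and 13.54 in the vehicle arrays. Both groups were tight and did not overlap, and the difference was -0.19 (SE 0.10). Dcn, decorin, differed by -0.15 (SE 0.09), likewise without overlap, and Plod2, which hydroxylates lysines of collagen, by -0.49 (SE 0.25). The fibroblast list had 14 of 17 genes lower, a median of -0.11 and levels from -0.32 to 0.34 with rosiglitazone and from -0.30 to 0.34 with vehicle.

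Genes of growth factor signalling and gene regulation were among those that the naming rule picked from the 252 lower without overlap (1.87% of all tested genes). Map4k5, a kinase upstream of the JNK pathway, was at 9.04, 9.14, 9.35, 9.25 and 9.02 in arrays CR711 to CR715, against 9.77, 9.89, 9.78 and 9.81 in arrays CV702 to CV705. The gap between the groups was wide against the spread within them, all 3 probe sets lay lower, and the difference was -0.65 (SE 0.17, limma unadjusted p = 0.00133). Spry2 and Dusp6, feedback inhibitors of ERK signalling, differed by -0.43 (SE 0.13) and -0.42 (SE 0.13). Spry2 was at 11.59, 11.97, 12.01, 11.85 and 11.95 with rosiglitazone and at 12.30, 12.25, 12.35 and 12.30 with vehicle, with no overlap. Sox5, a transcription factor, differed by -0.54 (SE 0.16) and lay lower in all 7 of its probe sets. Ccnt2, a cyclin that promotes transcript elongation, differed by -0.55 (SE 0.15), and Rbbp5, a subunit of histone H3 methyltransferases, by -0.44 (SE 0.12). Of the 5 probe sets of Ccnt2, 4 lay lower. Rad51c, a DNA recombination protein, was at 5.73, 5.58, 5.74, 5.91 and 5.18 with rosiglitazone and at 5.97, 6.19, 6.41 and 6.09 with vehicle. It lay near the filter of 5.54, with a narrow gap between arrays CR714 and CV702 (difference -0.54, SE 0.13, limma unadjusted p = 0.000672).

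The remaining lower genes of the naming rule serve membrane traffic, protein modification and other tasks. Stxbp3, a regulator of vesicle fusion, was at 10.47, 10.84, 10.94, 10.88 and 10.98 in the rosiglitazone arrays and at 11.34, 11.28, 11.25 and 11.60 in the vehicle arrays. Its groups were well apart, with a difference of -0.54 (SE 0.14). Tvp23b, a Golgi protein gene, differed by -0.49 (SE 0.14), Tusc3, which takes part in N-glycosylation, by -0.56 (SE 0.16), Crlf3 by -0.44 (SE 0.13) and Prrc1 by -0.34 (SE 0.10). Of the 7 probe sets of Prrc1, 5 lay lower. Rmnd5a, part of a ubiquitin ligase, was at 10.38, 10.36, 10.41, 10.43 and 10.46 with rosiglitazone and at 10.68, 10.70, 10.57 and 10.78 with vehicle, a small but tight difference of -0.27 (SE 0.08). Myo1h, a class I myosin, differed by -0.29 (SE 0.09) in control mice and by -0.37 (SE 0.08) in diabetic mice. With array weights Map4k5, Rad51c, Prrc1, Spry2, Rmnd5a, Stxbp3, Ccnt2, Sox5 and Lum were among the 18 lower genes past the threshold.

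Higher genes without overlap included several outside lipid storage. C920021L13Rik, a gene of unnamed function, had the smallest unadjusted p of all (0.00028). It was at 7.07, 6.33, 6.96, 6.33 and 7.15 in arrays CR711 to CR715, against 6.14, 5.77, 5.70 and 5.81 in arrays CV702 to CV705, with a difference of 0.91 (SE 0.20). Its other probe set had the opposite sign, and the mean of both gave 0.26. Stab2, a scavenger receptor of sinusoidal and lymphatic endothelium, was at 11.09, 11.10, 11.35, 11.33 and 10.68 with rosiglitazone and at 9.10, 10.40, 10.67 and 10.46 with vehicle. The gap between arrays CR715 and CV704 was narrow, and the difference of 0.95 (SE 0.31) was 0.60 without array CV702. Nudt18, a hydrolase of oxidised nucleotides, was at 10.82, 10.51, 10.19, 10.21 and 11.14 with rosiglitazone and at 9.99, 10.03, 10.10 and 9.97 with vehicle, and differed by 0.55 (SE 0.17). Mitochondrial enzymes in this set were Acsf3, a malonyl-CoA synthetase (0.74, SE 0.24), Pdss2, of coenzyme Q synthesis (0.45, SE 0.15), and the glutaredoxin Glrx2 (0.32, SE 0.10). Crtac1, a secreted cartilage protein, differed by 1.65 (SE 0.59) and by 1.33 (SE 0.56) in diabetic mice. The others were 1700037H04Rik (0.70, SE 0.23), Casz1 (0.58, SE 0.20), Rassf10 (0.43, SE 0.15), Alppl2 (0.36, SE 0.11), Aptx (0.32, SE 0.11), Rtf2 (0.32, SE 0.11) and Dohh (0.32, SE 0.11).

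In the endothelial list 15 of 19 genes were higher in control mice (median 0.26, or 0.15 without array CR715), beside 1 of 19 in diabetic mice (median -0.27), where 47.2% of all tested genes lay higher. In diabetic mice Vwf was highest in arrays DV706 and DV707, at 13.12 and 12.87, the arrays with Gapdh 3' minus 5' differences of 3.71 and 4.38. The sensory neuron level was also low in 4 diabetic arrays, at -3.12 in DR716, -2.82 in DV706, -3.35 in DV707 and -3.38 in DV709. The part of these arrays in the endothelial values was not tested. Egfl7, a secreted endothelial factor, was at 10.25, 10.33, 10.39, 10.14 and 10.24 in arrays CR711 to CR715, against 9.998, 10.11, 9.71 and 9.72 in arrays CV702 to CV705. Its groups were separated by a narrow gap, with a difference of 0.38 (SE 0.20). Vwf, von Willebrand factor, and Kdr, the main VEGF receptor, differed by 0.79 (SE 0.43) and 0.47 (SE 0.24). Notch3, a receptor of vascular smooth muscle, differed by 0.43 (SE 0.28).

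Clock and stress hormone genes gave few differences. Cry2, a repressor of the circadian clock, was at 10.23, 9.98, 9.78, 9.69 and 10.02 with rosiglitazone and at 9.36, 9.43, 9.85 and 9.66 with vehicle, with a difference of 0.37 (SE 0.14) between groups that overlapped. The clock-driven factor gene Dbp and the clock repressor gene Nr1d1 had differences of 0.37 (SE 0.47) and 0.30 (SE 0.34). Tsc22d3 and Ddit4, induced by glucocorticoids, differed by -0.65 (SE 0.22) and -0.46 (SE 0.22), while Fkbp5, another such gene, differed by 0.12 (SE 0.32). Tsc22d3 was at 10.14, 10.29, 10.53, 10.88 and 10.83 with rosiglitazone and at 10.75, 11.13, 11.43 and 11.42 with vehicle. Arrays CR714 and CR715 lay above array CV702, and in diabetic mice Tsc22d3 differed by -0.09 (SE 0.21). Sgk1, a kinase gene induced by glucocorticoids, differed by -0.24 (SE 0.15). The glucocorticoid-induced list had 11 of 17 genes lower, and its median difference was -0.07.

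Among redox genes, the glutaredoxin gene Glrx2 differed by 0.32 (SE 0.10) and the others named here lay within 2 SE of 0. Cybb, a subunit of the phagocyte NADPH oxidase, and Nfe2l2, a regulator of antioxidant genes, differed by -0.40 (SE 0.25) and -0.24 (SE 0.18). Txnip, an inhibitor of thioredoxin that responds to glucose, differed by -0.22 (SE 0.18), the haem-degrading enzyme gene Hmox1 by -0.49 (SE 0.56), the mitochondrial superoxide dismutase gene Sod2 by -0.10 (SE 0.18) and catalase, Cat, by 0.12 (SE 0.11). Of 4 probe sets of Sod2 only the one shown lay lower. The antioxidant list had 16 of 37 genes higher and a median of -0.03.

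Myelin genes were not separable between the groups once array CR715 was considered. All 20 were lower (median -0.17), but without array CR715 the median was 0.08 with 15 of 20 higher. Mbp, myelin basic protein, was at 14.27, 14.24, 14.33, 14.27 and 13.83 in arrays CR711 to CR715, against 14.32, 14.17, 14.20 and 14.19 in arrays CV702 to CV705. These are among the highest values on the arrays, with array CR715 alone below the rest. Mbp differed by -0.03 (SE 0.10), Pmp22, a membrane protein of compact myelin, by -0.05 (SE 0.09), and Ngfr, the low-affinity neurotrophin receptor of immature Schwann cells, by -0.10 (SE 0.57). Without array CR715 the 3 differences were 0.06, 0.02 and 0.45. Sensory neuron genes turned likewise, with 12 of 13 lower and a median of -0.29 with all arrays and 13 of 13 higher and a median of 0.63 without array CR715. Erbb3, the Schwann cell receptor for neuregulin, differed by -0.34 (SE 0.27) and Nrtn, the growth factor neurturin, by 0.27 (SE 0.21). Of the 2 probe sets of Erbb3 only 1 lay lower. Among neurotrophin pathway genes Sort1, the sorting receptor sortilin, was at 10.60, 10.10, 10.03, 10.10 and 10.54 with rosiglitazone and at 10.16, 9.67, 9.60 and 9.68 with vehicle. Array CV702 alone reached the rosiglitazone range, and the difference was 0.50 (SE 0.16, limma unadjusted p = 0.00786).

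**Figure D5:**
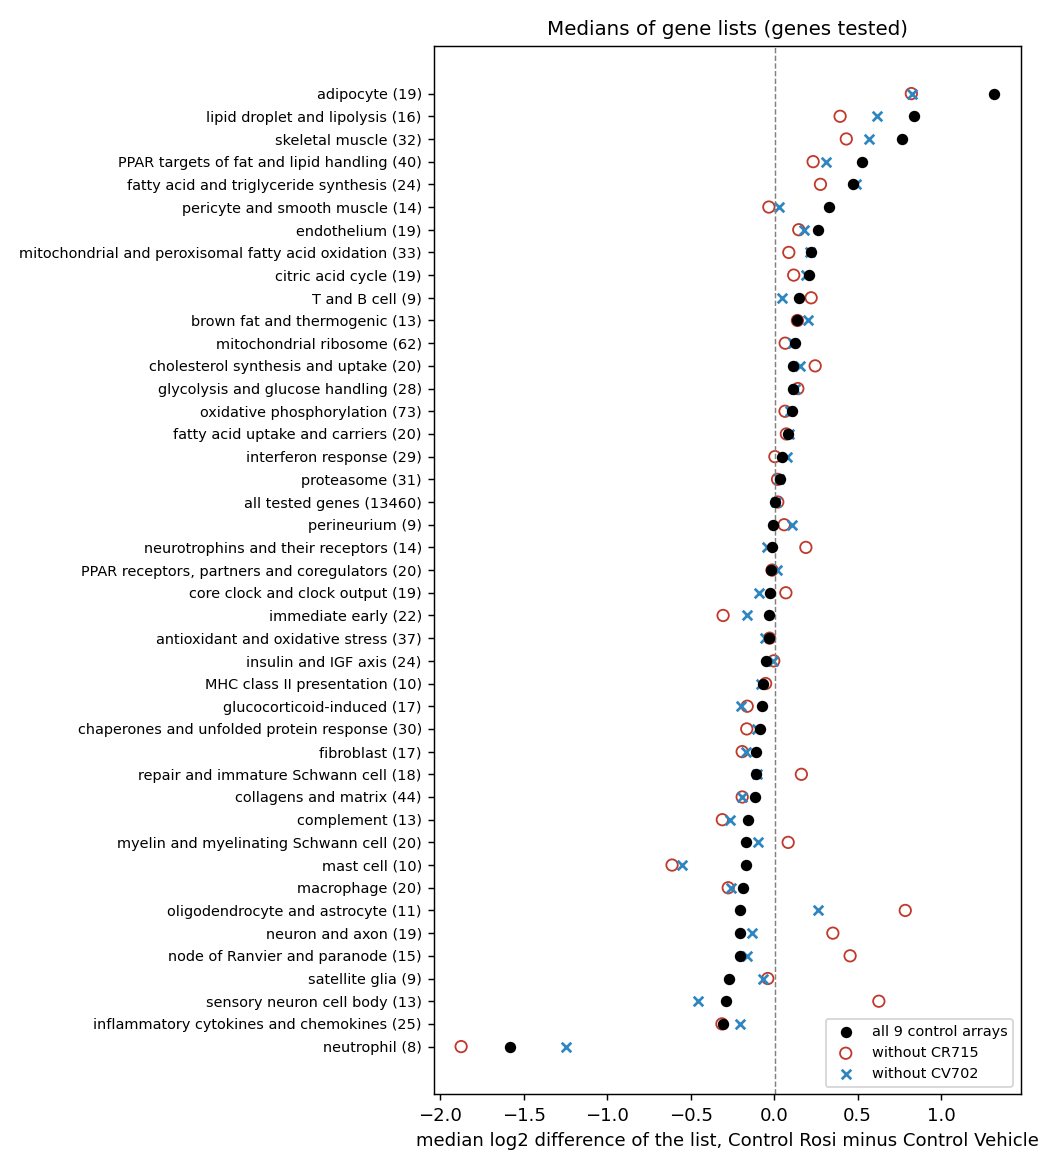
Each row is a list with at least 8 tested genes (number in brackets), and the x axis gives the median log2 difference, control rosiglitazone minus control vehicle, with all 9 control arrays (black), without array CR715 (red circles) and without array CV702 (blue crosses). The dashed line is the median of all tested genes. The adipocyte, lipid droplet and PPAR target lists lie nearer to 0 without either array, sensory neuron and myelin lists change sign without array CR715, and the cytokine and chemokine median stays below 0 (-0.30, -0.31 and -0.21).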

How the data were processed

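The authors deposited linear-scale intensities for every probe set of each array, summarised with RMA, per the submitters' processing notes; version and settings are not given in the sources used here. Total RNA was extracted on RNeasy columns and labelled with NuGEN Ovation, per the labels' protocols. The table held 45101 probe sets, of which 64 controls were left out; 34945 of the others had 1 gene symbol in the platform annotation. Intensities, from 3.76 to 30602, were put on the log2 scale without offset. For each gene the brightest probe set over the 19 arrays was kept, and the 13460 genes with a mean above the 40th percentile (log2 5.54) were tested.

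A model with 1 mean for each of 4 groups was fitted over the 19 arrays with limma 3.58.1 in R 4.3.3, with eBayes and Benjamini-Hochberg adjustment at 0.05 (tested on simulated data first). Diabetic arrays entered the estimate of the spread. Array measures were compared by exact permutation over 126 splits. The design names mice as the unit, and the number of arrays limits the precision.

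The 44 gene lists, the named genes and the comparison itself were chosen with earlier results of these data known. The rule named the 15 higher and 15 lower genes with the smallest p among those whose groups did not overlap, 32 fixed genes (25 tested; Ucp1 lay below the filter, and the others are not reported here), up to 3 members of each list with the smallest p, of which the text gives a selection made after their values were seen, and the 8 genes with the smallest p for the difference between both drug effects. Values for other list members stand beside them. Alternatives covered filters, scaling, offset, probe set choice, array weights, covariates and left-out arrays. Leaving out arrays CR715 and CV702 together was chosen after seeing the data.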

Additional observations from a re-analysis of the deposited data

Results flagged for a closer look

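Chance alone would set 1 array far apart in about 1 in 20 independent groups, but the groups of array values tested here are not independent. Genes were tested beside the levels they enter, and many were picked by these same values. In 21 of 256 groups (8.20%), a share that therefore cannot be read against chance, 1 array lay far from the others relative to the group's range. Of these, 11 were in array CR715: the sensory neuron level of -3.26, the myelin level of -1.12, Isl1 at 6.41, Tac1 at 5.52, Ngfr at 7.85, Mbp at 13.83, Pmp22 at 13.82, Cidea at 11.75, Slc2a4 at 10.95, Agpat2 at 12.89 and 1700037H04Rik at 11.88. In array CR711 these were Stxbp3 at 10.47, Tvp23b at 10.32, Cpt1a at 10.38 and Nrtn at 6.52. Mb, which encodes myoglobin, was at 5.73 in array CR712 and above 9 in the other rosiglitazone arrays. In the vehicle group they were Alppl2 at 5.81 and Sort1 at 10.16 in array CV702, Myh1 at 6.46 in array CV704, and Crebbp at 12.34 and Igf1r at 10.24 in array CV705.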

How the results depend on the processing

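Of 121 genes examined, 100 kept their sign under every alternative, as did 2596 of 2656 gene values. Many of the 121 were picked because their groups did not overlap. Leaving out 1 array cannot turn the sign of such a gene, so these sign counts are no measure of robustness. With array weights 12 of the genes passed an adjusted p of 0.05. Of 1056 list medians, 1049 moved by less than 1 SD of the list's level between control arrays of the same group. The others became 0.38 for cholesterol synthesis, 0.25 for perineurium, -0.39 for macrophage, -0.29 for MHC class II, -1.13 for mast cell and -0.46 for complement genes with the adipocyte covariate, and -0.46 for complement genes without arrays CR715 and CV702. Array CR715 widens that SD in several lists. The sensory neuron and myelin medians changed sign without array CR715 yet count as within 1 SD. So does the PPAR target median with the adipocyte covariate. At an adjusted p of 0.05, array weights gave 20 genes for the control effect and the other alternatives 0. At an unadjusted p under 0.05 the 381 genes became 804 with the 9 control arrays alone, 764 over single probe sets, 2074 with array weights, 639, 647, 687 and 242 with Gapdh 3' minus 5', sensory, adipocyte and muscle levels as covariates, and 1198 without 5 arrays low in sensory transcripts; leaving out 1 array gave 204 to 511. For control minus diabetic effects the 642 became 1164 unfiltered, 1540 over single probe sets, 1290 with weights and 317 with the Gapdh covariate, and 361 to 859 with 1 array left out. Signs turned as follows. Probe set means gave Sod2 0.14. Array weights gave Ppargc1a 0.14, Mbp 0.044, Pmp22 0.0199, Ngfr 0.25, Fkbp5 -0.16, Isl1 0.29 and Tac1 0.42. The sensory covariate gave Ppargc1a 0.00649 and Ngfr 0.0286. The adipocyte covariate gave Pparg -0.14, Ppargc1a 0.41, Pdk4 -0.0348, Angptl4 -0.0751, Fabp4 -0.22, Cd36 -0.57, Plin2 -0.15, Adipoq -0.63, Lpl -0.43, Cidec -0.14, Mbp 0.0571, Pmp22 0.0457, Ngfr 0.32, Tac1 0.19 and Cox8b -0.0192. The muscle covariate gave Ppargc1a 0.0442. Leaving out 5 arrays low in sensory transcripts gave Rxra -0.0282, Ppargc1a 0.16, Mbp 0.0567, Pmp22 0.0247, Ngfr 0.45, Isl1 0.20 and Tac1 0.56. Leaving out arrays CR715 and CV702 gave Rxra -0.0974, Ppargc1a 0.23, Angptl4 -0.15, Cd36 -0.30, Plin2 -0.0864, Cpt1a 0.0422, Mbp 0.091, Pmp22 0.0506, Ngfr 0.49, Fkbp5 -0.0703, Isl1 0.14 and Tac1 0.26. With 1 array left out the ranges that crossed 0 were Fkbp5 -0.0881 to 0.31, Sod2 -0.22 to 0.0365, Rxra -0.0282 to 0.21, Ppargc1a -0.16 to 0.16, Mbp -0.0668 to 0.0567, Pmp22 -0.0766 to 0.0247, Ngfr -0.33 to 0.45, Isl1 -1.01 to 0.20, Tac1 -1.12 to 0.56, Cpt1a -0.11 to 0.0133 and Nr1d1 -0.0496 to 0.57, where array CR711 (Fkbp5, Sod2), CR715 (Rxra, Ppargc1a, Mbp, Pmp22, Ngfr, Isl1, Tac1), CV702 (Ppargc1a, Cpt1a, Mbp, Fkbp5), CV703 (Ppargc1a) or CV705 (Nr1d1) turned the sign. The cause was not tested. No paired analysis was possible because the groups share no replicate number.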
